A study of Mus musculus with 19 samples.

Results

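The structural and surface genes that mark astrocytes and their reactive state were followed in the medial prefrontal cortex of mice given bacterial lipopolysaccharide (LPS), the celery phthalide sedanolide, or both. The 10 genes were picked by name, with earlier results of these data known, and are 10 of the 57010 genes in the deposited count table. They comprise 2 intermediate filament genes (Gfap and Vim), 5 genes of the cell surface and matrix (Emp1, Cd44, Timp1, S1pr3 and Cd109), the water channel gene Aqp4, and the glutamate transporter genes Slc1a2 and Slc1a3. All 10 passed the filter on low counts.

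Astrocytes are the glial cells that take up glutamate released at synapses, move water and potassium through endfeet on blood vessels, and carry a skeleton of intermediate filaments. During inflammation or injury they become reactive: filament genes such as Gfap and Vim, and genes for surface and matrix proteins, are typically raised, in part through cytokine signals that act on the transcription factor STAT3. Several of these genes are not confined to astrocytes, since Vim, Cd44, Emp1 and Timp1 are also made by vascular and immune cells.

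All mice were wild type. Control mice (n = 4 libraries, numbered 1, 2, 4 and 5 in the labels) were given saline by gavage for 8 days and saline into the peritoneum for 5 days. LPS mice (n = 5 libraries) were injected with LPS (1 mg/kg) instead. Sedanolide mice (n = 5 libraries) were gavaged with the compound at 20 mg/kg, and co-treated mice (n = 5 libraries) received both, with gavage begun 3 days before LPS. The series set out to find genes whose expression differed between these treatments. The labels do not say that the replicates of a group are separate animals, so p-values measure the spread between these libraries. Whether a tissue level moved because there were fewer or more cells of a type, or because each cell held less or more RNA, cannot be told apart in bulk tissue.

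Library totals ranged from 19.1 to 24.3 M counts, where M is 1000000. The libraries differed in olfactory bulb tissue, which lies in front of the prefrontal cortex: Cdhr1, a gene of bulb projection neurons, ranged from 57.6 to 444 CPM in 7 libraries (control 1 and 5, LPS 2, 3 and 4, sedanolide 3 and 4) and from 2.29 to 9.91 CPM in the other 12. CPM is counts per 1000000 of the library total, scaled between libraries. The former are termed bulb-rich and the latter bulb-poor. All 5 co-treated libraries were bulb-poor, so values within the bulb-poor libraries, or with a bulb index in the model, are given beside the main results on that group. The 18 astrocyte identity genes outside the member list summed to between 6216 and 9216 CPM over all 19 libraries, so astrocyte RNA was well represented in each.

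The promoters of the 4 members below are shown because these genes moved together after LPS, and because Gfap and Emp1 hold matches to the letters that STAT factors read while Vim and Timp1 do not. Each run is 300 bases long, from 250 bases before to 50 bases after the RefSeq gene start in build GRCm38.p6, read 5′ to 3′ on the gene's own strand. Capitals mark matches to the STAT motif (TTCNNNGAA) or the AP-1 motif (TGANTCA), both searched on both strands. The Gfap window is chr11:102897151-102897450 (reverse strand), the Vim window chr2:13574061-13574360 (forward), the Emp1 window chr6:135362681-135362980 (forward) and the Timp1 window chrX:20869916-20870215 (forward).
Gfap promoter: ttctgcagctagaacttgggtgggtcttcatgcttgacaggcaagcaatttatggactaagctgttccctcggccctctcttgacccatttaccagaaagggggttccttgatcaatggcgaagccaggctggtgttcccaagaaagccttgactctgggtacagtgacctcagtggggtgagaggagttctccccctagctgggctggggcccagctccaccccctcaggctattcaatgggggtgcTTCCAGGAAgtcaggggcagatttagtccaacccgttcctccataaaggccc
Vim promoter: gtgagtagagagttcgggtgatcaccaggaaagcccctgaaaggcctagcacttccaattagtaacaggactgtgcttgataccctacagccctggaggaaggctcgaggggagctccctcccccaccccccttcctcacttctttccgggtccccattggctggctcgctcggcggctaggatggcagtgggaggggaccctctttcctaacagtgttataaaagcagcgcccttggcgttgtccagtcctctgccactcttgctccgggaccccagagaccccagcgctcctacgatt
Emp1 promoter: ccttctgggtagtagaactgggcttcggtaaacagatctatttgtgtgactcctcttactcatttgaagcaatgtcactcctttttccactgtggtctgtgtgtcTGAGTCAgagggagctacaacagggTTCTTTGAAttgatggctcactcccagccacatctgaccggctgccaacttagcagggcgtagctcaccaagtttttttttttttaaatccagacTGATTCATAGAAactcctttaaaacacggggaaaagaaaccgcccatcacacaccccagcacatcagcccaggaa
Timp1 promoter: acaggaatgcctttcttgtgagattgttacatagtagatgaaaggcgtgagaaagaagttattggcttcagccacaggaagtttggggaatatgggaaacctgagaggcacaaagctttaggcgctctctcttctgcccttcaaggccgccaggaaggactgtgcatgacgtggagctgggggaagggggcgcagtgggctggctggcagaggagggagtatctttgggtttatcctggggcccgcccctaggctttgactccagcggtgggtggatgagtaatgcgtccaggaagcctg
The Gfap window held 1 STAT match, TTCCAGGAA, at positions 249 to 257 of the window, across the start itself. Emp1 had 2 STAT matches, TTCTTTGAA at 131 to 139 and TTCATAGAA at 229 to 237, and 2 AP-1 matches, TGAGTCA at 106 to 112 and TGATTCA at 226 to 232. The second STAT match and the second AP-1 match overlap, so they share a capital run. RefSeq gives Emp1 a second start, whose window held no match of either kind. Among all 32851 promoter windows of this length, 8.30% held the STAT letters and 7.81% the AP-1 letters. RefSeq windows were found for 8 of the 10 members, all but Cd109 and Aqp4. Slc1a3, which was not called in any comparison, held 1 STAT match (TTCCAAGAA), and the windows of Cd44, S1pr3 and Slc1a2 held none. A match describes letters in a window and is not a binding site.

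The members spanned more than 3 orders of level. Per kilobase of the longest annotated transcript, the mean over the 19 libraries was 269 CPM for Slc1a2, 204 for Slc1a3, 135 for Gfap, 41.0 for Vim and 34.6 for Aqp4. The surface and matrix genes were far lower, at 2.99 CPM per kilobase for S1pr3, 1.90 for Emp1, 1.02 for Cd44, 0.771 for Timp1 and 0.145 for Cd109. The last 2 rest on few reads: Timp1 had 1 to 51 counts per library and Cd109 had 6 to 50.

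After LPS the filaments and 3 surface and matrix genes were higher while the transporters and the water channel were not called. The test was edgeR's quasi-likelihood test over all 17757 genes tested, two-sided, and a gene was called at a Benjamini-Hochberg adjusted p below 0.05. Against control, 5 of the 10 members were called in LPS libraries, all higher, where 10.9% of all genes tested were called and 8.47% were called higher. For 4 of the 5, all but Timp1, no LPS library overlapped a control, as for 7.92% of genes in that direction. The median log2 fold change was 0.71 over the members and -0.0034 over all genes tested. In co-treated against LPS libraries, 2 members were called, both lower, with 1.97% of genes called and 1.68% called lower, and both without overlap, as for 4.59% of genes in that direction. The median over the 10 members was -0.50, against -0.01 over all genes. Because both comparisons use the LPS libraries, their opposite signs are not independent of each other. In the bulb-poor libraries edgeR called 0 of 10 members in co-treated against LPS (0.197% of genes called). There 5 members had an unadjusted p below 0.05, as had 10.3% of genes. With the bulb index in the model 1 member was called, lower (0.788% of genes called). Co-treated against sedanolide libraries, the comparison in which LPS is added on a sedanolide background, gave 3 members called higher, with 5.58% of genes called and 5.09% called higher, all 3 without overlap, as for 5.4% of genes in that direction. For this comparison 2 members were called higher bulb-poor (4.91% of genes called) and 2 with the bulb index (6.54%).

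The remaining comparisons called none of the members with edgeR over all 19 libraries. Sedanolide alone against control gave 0 of 10 at a background of 5.31% of genes called, 1 member (Vim) at an unadjusted p below 0.05 (24.9% of all genes), and 0 with DESeq2 (12.2% of its genes called), which left no adjusted p for Timp1. Co-treated against control gave 0 of 10 at a background of 11.1%, with 4 members at an unadjusted p below 0.05, where 28.3% of all genes were. DESeq2 called 2 (Cd44 higher, Cd109 lower), where it called 15.1% of all genes. With edgeR, 2 members were called higher bulb-poor (3.46% of genes called) and 2 with the bulb index (6.17%). The interaction, which is the sedanolide change with LPS minus that without it, gave 0 of 10 at a background of 0.586%. There 1 member, Cd109, had an unadjusted p below 0.05 (15.9% of all genes), and DESeq2 again called 0 (3.01% of its genes called), with no adjusted p for Timp1 and Cd109.

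**Figure D1:**
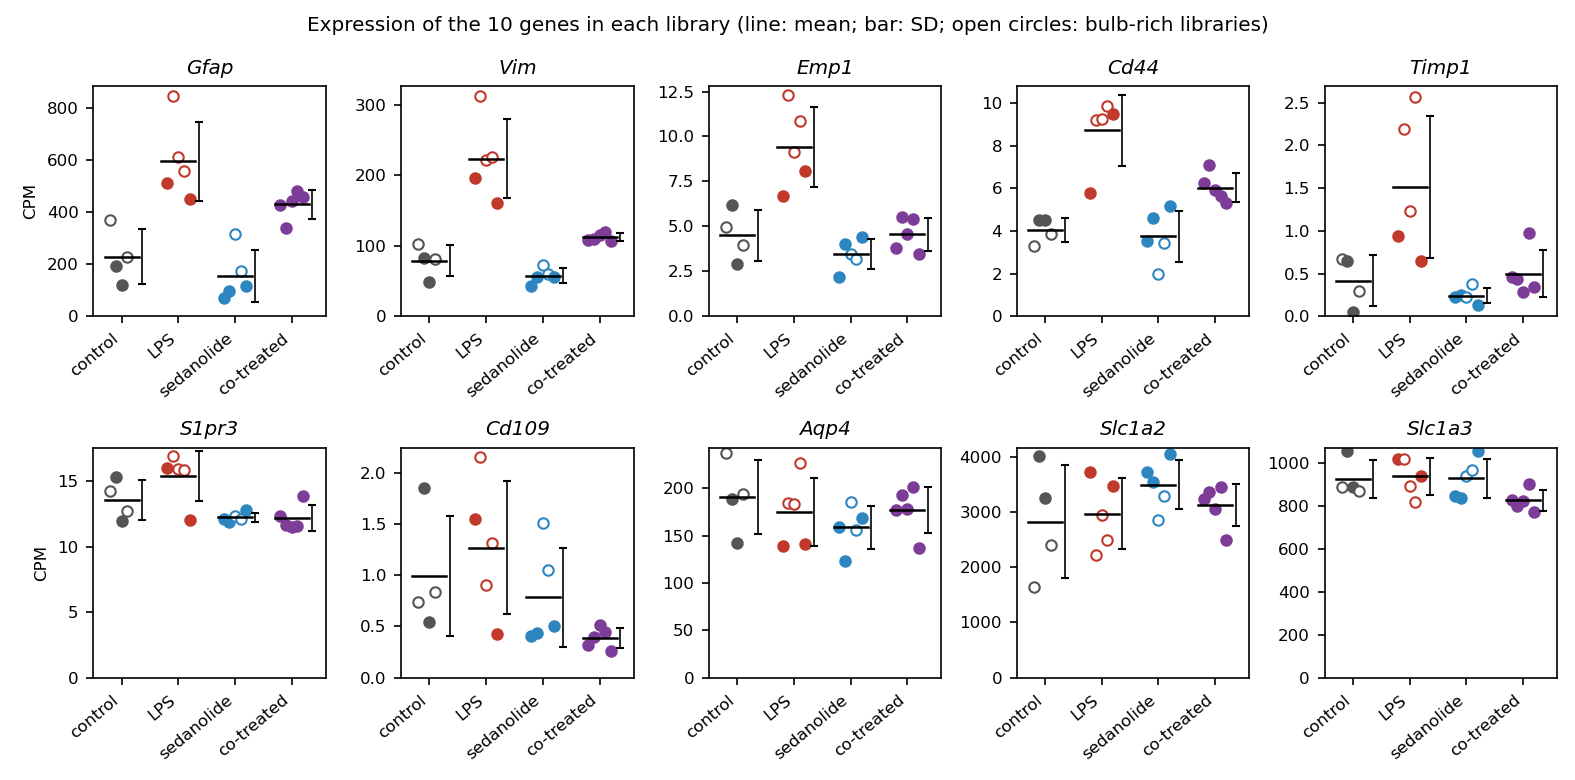
Level of each of the 10 genes in every library (vertical axes, CPM, each from 0) by treatment group (horizontal axis); points are libraries, open where bulb-rich, horizontal lines are group means and bars the SD. For Gfap, Vim, Emp1 and Cd44 every LPS library lies above every control library, while Aqp4, Slc1a2 and Slc1a3 overlap in all groups.

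Gfap encodes glial fibrillary acidic protein, the main filament of astrocytes (chr11:102778162-102791738, reverse strand, in the deposited table's coordinates). Its level was 370.5, 193, 120.1 and 229 CPM in control libraries 1, 2, 4 and 5, and 509.8, 843, 610.2, 556 and 448 CPM in LPS libraries 1 to 5. Sedanolide libraries 1 to 5 held 69.1, 95.5, 317, 175 and 116 CPM, and co-treated libraries 1 to 5 held 425, 337, 443, 481 and 458 CPM. The LPS libraries all lay above the controls, and the co-treated libraries all lay above the sedanolide libraries, but the highest control lay within the co-treated range. Within control, LPS and sedanolide, the bulb-rich libraries were the higher ones.

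Gfap rose 2.60-fold from control to LPS (log2 change 1.38, SE 0.37, adjusted p = 0.0197) and 2.77-fold from sedanolide to co-treated (1.47, SE 0.34, adjusted p = 0.0123). From LPS to co-treated the log2 difference was -0.47 (95% interval -1.18 to 0.24, adjusted p = 0.433). From control to sedanolide it was -0.56 (-1.31 to 0.19, adjusted p = 0.338), and from control to co-treated it was 0.91 (0.15 to 1.68, adjusted p = 0.11). The rise over control lost its call without control 4 (log2 1.17, adjusted p = 0.072), control 5 (1.38, 0.0591) or LPS 2 (1.22, 0.055). With no filter on low counts both calls were lost, at adjusted p = 0.0767 for LPS against control and 0.051 for co-treated against sedanolide, where 35565 genes were tested.

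The Gfap values also differed between bulb-rich and bulb-poor libraries of a group. In the 12 bulb-poor libraries its mean was 156 CPM in control, 479 in LPS, 93.6 after sedanolide and 429 after co-treatment. There the rise from control to LPS was 1.59 (adjusted p = 0.00119), and the co-treated libraries were above control by 1.44 (adjusted p = 0.00161), a difference that was not called over all libraries. With the bulb index in the model, Gfap was higher in co-treated than in control libraries by 1.66 (adjusted p = 6.27e-05). The same 2 fits put co-treated against LPS at -0.15 (adjusted p = 0.833) and at 0.14 (adjusted p = 0.868), the latter with the opposite sign to the fit without the index. Co-treated libraries were above sedanolide libraries by 2.22 bulb-poor (adjusted p = 7.44e-06) and by 2.00 with the index (adjusted p = 9.16e-07). In the 7 bulb-rich libraries the LPS difference from control was 1.13 and not called (adjusted p = 0.123).

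Vim encodes vimentin, the filament that partners Gfap in reactive astrocytes and is the main one of endothelial and other mesenchymal cells (chr2:13578738-13587637, forward strand). Control libraries 1, 2, 4 and 5 held 103, 82.7, 49.0 and 80.9 CPM, and LPS libraries 1 to 5 held 196, 313, 221, 226 and 161 CPM. Sedanolide libraries 1 to 5 held 42.7, 55.1, 73.3, 60.5 and 56.3 CPM. Co-treated libraries 1 to 5 lay close together, at 108, 109.8, 115, 119 and 107 CPM. No LPS library overlapped any other group, and every co-treated library lay above every control and sedanolide library.

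Among the members Vim had the smallest p in LPS against control and in co-treated against LPS. It rose 2.83-fold with LPS (log2 1.501, SE 0.20, adjusted p = 1.99e-05) and was below the LPS level in co-treated libraries by a log2 change of -0.998 (SE 0.18, adjusted p = 0.00617). Against sedanolide libraries it rose 1.94-fold in co-treated libraries (0.96, SE 0.18, adjusted p = 0.00164). None of these 3 calls was lost in any of the 19 fits that left out 1 library. Co-treated against control gave 0.50 (adjusted p = 0.0912), with no overlap between the groups, as for 7.92% of genes in that direction. Sedanolide against control gave -0.45 (adjusted p = 0.144), which was called without control 4 (-0.62, adjusted p = 0.0342).

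Within the bulb-poor libraries Vim still rose with LPS (1.41, adjusted p = 0.000469) and was 0.75 above control in co-treated libraries (adjusted p = 0.0216). The co-treated difference from LPS was smaller there (-0.66, adjusted p = 0.134, with only LPS libraries 1 and 5 left), and it was called with the bulb index in the model (-0.68, adjusted p = 0.017). Co-treated against sedanolide was 1.14 bulb-poor (adjusted p = 0.000182) and 1.15 with the index (adjusted p = 1.8e-06).

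The level of Gfap was also set against the other astrocyte genes, to ask whether it moved apart from them. For each library the mean log2 level of 18 astrocyte identity genes, among them Aldoc, Gja1 and Glul, was taken from that of Gfap (log2 of CPM plus 0.5). The result was 0.89, -0.13, -0.41 and 0.27 in control libraries 1, 2, 4 and 5, and 1.25, 1.92, 1.76, 1.55 and 1.31 in LPS libraries 1 to 5. Sedanolide libraries 1 to 5 gave -1.29, -0.79, 0.67, -0.12 and -0.75, and co-treated libraries 1 to 5 gave 1.24, 0.91, 1.31, 1.31 and 1.56. All LPS libraries lay above all controls and all co-treated libraries above all sedanolide libraries.

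On this relative scale Gfap was higher by 1.40 in LPS than in control libraries and by 1.72 in co-treated than in sedanolide libraries. Both had an adjusted p of 0.0159 in a two-sided exact permutation test over 4 comparisons, from 0.00794, the smallest p these groups allow. Co-treated against LPS differed by -0.29 (adjusted p = 0.222) and sedanolide against control by -0.61 (adjusted p = 0.23), neither called by the exact permutation test. Against Slc1a2 and Slc1a3 as the reference, the LPS rise was 1.39 and lost its call (adjusted p = 0.0635, exact permutation test). Leaving out any LPS library gave 0.0571 in the same exact permutation test, which is the adjusted value of the smallest p that the 4 remaining libraries allow.

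**Figure D2:**
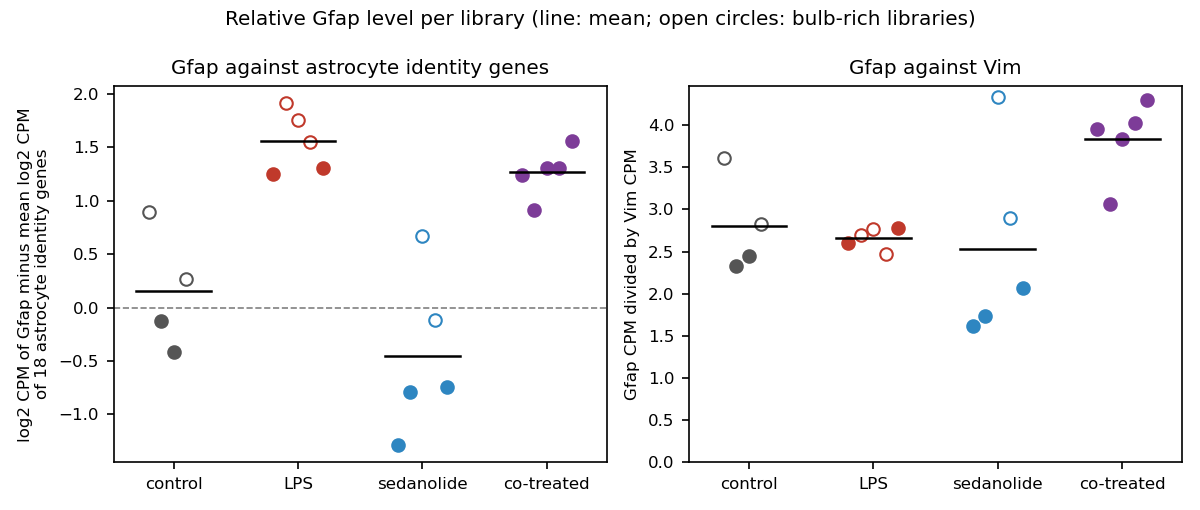
Left, log2 Gfap level minus the mean log2 level of 18 astrocyte identity genes; right, Gfap CPM divided by Vim CPM (vertical axes), by treatment group; points are libraries, open where bulb-rich, and lines are group means. On the left the LPS and co-treated libraries sit between 0.91 and 1.92 and the others between -1.29 and 0.89; on the right the co-treated libraries sit between 3.07 and 4.30, above the LPS libraries at 2.47 to 2.78.

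The balance of the 2 filament genes differed between the groups that received LPS. This ratio was chosen after its values were seen and is given with no test. Gfap CPM divided by Vim CPM was 2.47 to 2.78 in LPS libraries and 3.07 to 4.30 in co-treated libraries, with no overlap. Controls ranged from 2.33 to 3.61 and sedanolide libraries from 1.62 to 4.33. In the bulb-poor libraries alone the ranges were 2.33 to 2.45 in control, 2.61 to 2.78 in LPS, 1.62 to 2.06 after sedanolide and 3.07 to 4.30 after co-treatment, so the 4 groups did not overlap there.

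Emp1 encodes epithelial membrane protein 1, a small protein that crosses the cell membrane and is a known marker of reactive astrocytes (chr6:135339543-135360171, forward strand). It was at 4.98, 6.21, 2.90 and 3.96 CPM in control libraries 1, 2, 4 and 5, and at 6.72, 12.3, 9.16, 10.9 and 8.09 CPM in LPS libraries 1 to 5. In sedanolide libraries 1 to 5 it was at 2.20, 4.01, 3.46, 3.19 and 4.38 CPM, and in co-treated libraries 1 to 5 at 3.802, 5.54, 4.56, 5.39 and 3.49 CPM. Every LPS library lay above every library of the other 3 groups, which overlapped one another. Emp1 rose 2.09-fold with LPS (log2 1.06, SE 0.23, adjusted p = 0.00382) and was below the LPS level in co-treated libraries (-1.05, SE 0.21, adjusted p = 0.015).

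Co-treated and control libraries had nearly equal Emp1 means, 4.56 CPM ± 0.92 (SD, n = 5) and 4.51 ± 1.42 (n = 4), with a log2 difference of 0.01 (95% interval -0.47 to 0.49). The fall from LPS lost its call without LPS 2 (adjusted p = 0.0525), co-treated 1 (0.0541) or co-treated 5 (0.0534). In the bulb-poor libraries neither Emp1 change was called: LPS against control was 0.67 (adjusted p = 0.34) and co-treated against LPS was -0.69 (adjusted p = 0.416). With the bulb index in the model the LPS rise was called (1.06, adjusted p = 0.00155) and the co-treated difference was not (-0.91, adjusted p = 0.074).

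Cd44 encodes the cell surface receptor for hyaluronan, a matrix sugar chain, and is found on reactive astrocytes and leukocytes (chr2:102641486-102732010, reverse strand). The values were 3.28, 4.49, 4.52 and 3.88 CPM in control libraries 1, 2, 4 and 5, and 5.78, 9.21, 9.24, 9.87 and 9.48 CPM in LPS libraries 1 to 5. Sedanolide libraries 1 to 5 gave 3.52, 4.59, 2.00, 3.44 and 5.16 CPM, and co-treated libraries 1 to 5 gave 6.23, 7.08, 5.92, 5.66 and 5.30 CPM. LPS 1 stood below the other LPS libraries and within the co-treated range, and the co-treated libraries all lay above the control and sedanolide libraries.

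Cd44 rose 2.16-fold with LPS (log2 1.11, SE 0.21, adjusted p = 0.00109) and 1.61-fold from sedanolide to co-treated (0.69, SE 0.20, adjusted p = 0.044). The second call was lost in 11 of the 19 fits that left out 1 library, with adjusted p up to 0.119, in the bulb-poor libraries (0.47, adjusted p = 0.195), with the bulb index (0.62, adjusted p = 0.0575) and with only the 2 groups compared in the model (0.70, adjusted p = 0.0613). The first was lost in the bulb-poor libraries (0.74, adjusted p = 0.114) and kept in the bulb-rich libraries (1.37, adjusted p = 0.0203). Co-treated libraries lay between LPS and control, with log2 differences of -0.53 from LPS (adjusted p = 0.148) and 0.58 from control (adjusted p = 0.077). Bulb-poor, these were -0.32 (adjusted p = 0.598) and 0.42 (adjusted p = 0.339). Cd44 lies tail to tail with Slc1a2 on chromosome 2, with 20.4 kb and no whole gene between them in the deposited table's coordinates.

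Timp1 encodes a secreted inhibitor of matrix metalloproteinases (chrX:20736405-20740974, forward strand). It had 0.664, 0.649, 0.0491 and 0.292 CPM in control libraries 1, 2, 4 and 5, and 0.939, 2.19, 1.23, 2.57 and 0.643 CPM in LPS libraries 1 to 5. Sedanolide libraries 1 to 5 had 0.229, 0.244, 0.222, 0.377 and 0.137 CPM, and co-treated libraries 1 to 5 had 0.458, 0.44, 0.282, 0.972 and 0.345 CPM. The highest LPS values were in bulb-rich libraries, and LPS 5 lay below control 1 and 2, so the groups overlapped.

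Timp1 had the largest LPS change of the members, 3.57-fold (log2 1.84, SE 0.50, adjusted p = 0.0194), with the widest interval (0.80 to 2.87). Its call was lost without control 4 (1.49, adjusted p = 0.0525) or control 5 (1.70, adjusted p = 0.0797), and in the bulb-poor libraries (1.13, adjusted p = 0.446) and the bulb-rich libraries (2.00, adjusted p = 0.0735). With only the groups compared in the model it was lost too (1.83, adjusted p = 0.109). Co-treated against LPS gave -1.59 (adjusted p = 0.0747), which DESeq2 called (adjusted p = 0.0285). That difference was -0.65 in the bulb-poor libraries (adjusted p = 0.712).

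S1pr3 encodes a receptor for the lipid sphingosine 1-phosphate (chr13:51562675-51576833, forward strand), and Cd109 encodes a membrane-anchored protein that binds TGF-beta (chr9:78522828-78623535, forward strand). S1pr3 was at 14.2, 15.3, 11.98 and 12.7 CPM in control libraries 1, 2, 4 and 5, and at 16.0, 16.9, 15.9, 15.9 and 12.05 CPM in LPS libraries 1 to 5. It was at 12.1, 11.9, 12.3, 12.1 and 12.8 CPM in sedanolide libraries 1 to 5 and at 12.4, 11.7, 11.5, 11.6 and 13.9 CPM in co-treated libraries 1 to 5. All but LPS 5 of the LPS libraries lay above every sedanolide and co-treated library. LPS against control gave 0.18 (adjusted p = 0.276) and co-treated against LPS gave -0.33 (SE 0.09, adjusted p = 0.0681), which was called without LPS 5 (-0.41, adjusted p = 0.0125) and by DESeq2 (adjusted p = 0.0311). The latter was -0.19 in the bulb-poor libraries (adjusted p = 0.664).

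Cd109 had 0.738, 1.85, 0.54 and 0.834 CPM in control libraries 1, 2, 4 and 5, and 1.55, 2.15, 0.904, 1.31 and 0.428 CPM in LPS libraries 1 to 5. It had 0.412, 0.44, 1.51, 1.05 and 0.502 CPM in sedanolide libraries 1 to 5, with the bulb-rich libraries highest, and 0.321, 0.396, 0.517, 0.442 and 0.258 CPM in co-treated libraries 1 to 5. The co-treated libraries all lay below the controls, as for 4.92% of genes, but LPS 5 lay within their range. No Cd109 comparison was called by edgeR: co-treated against LPS gave -1.71 (SE 0.46, adjusted p = 0.0577), co-treated against control -1.34 (SE 0.48, adjusted p = 0.0758) and the interaction -1.39 (SE 0.64, adjusted p = 0.299). The first was called in 5 of 19 fits that left out 1 library and by DESeq2 (adjusted p = 0.0132). Among bulb-poor libraries it was -1.36 (adjusted p = 0.366), co-treated against control was -1.64 (adjusted p = 0.0838) and the interaction was 0.08.

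**Figure D3:**
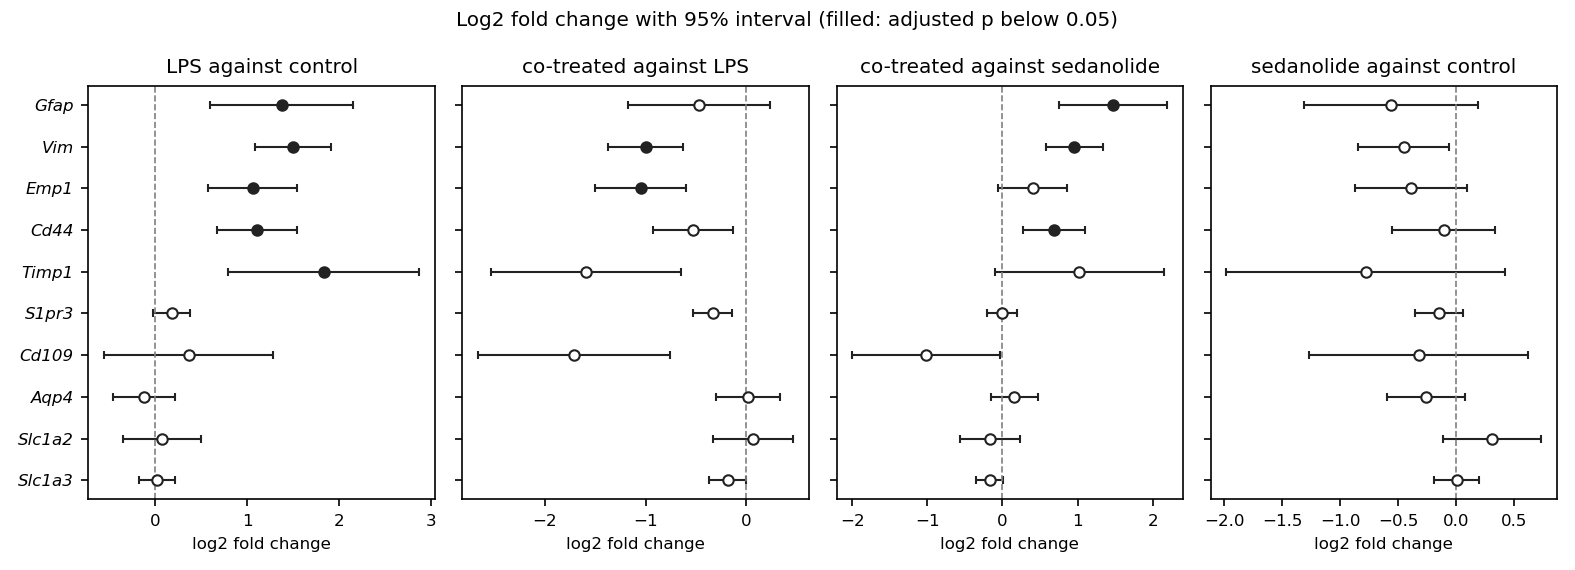
Log2 fold change (horizontal axes, which differ in range between panels) of each of the 10 genes (vertical axis) in 4 comparisons; points are edgeR estimates, filled at an adjusted p below 0.05, and bars are 95% intervals. Gfap, Vim, Emp1, Cd44 and Timp1 are filled in LPS against control, Vim and Emp1 in co-treated against LPS, and Gfap, Vim and Cd44 in co-treated against sedanolide.

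The water channel and the glutamate transporters, which carry out the resting tasks of astrocytes, were not called in any comparison over all libraries. Aqp4, on chromosome 18, encodes the water channel of astrocyte endfeet. It ranged from 142 to 238 CPM in control, 139 to 227 in LPS, 124 to 186 after sedanolide and 137 to 201 after co-treatment, so all groups overlapped. Its LPS difference from control was -0.12 (95% interval -0.46 to 0.21, adjusted p = 0.696). Co-treated against LPS gave 0.02 (-0.30 to 0.33, adjusted p = 0.959), and 0.35 bulb-poor (adjusted p = 0.459).

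Slc1a2 encodes GLT-1, the main glutamate transporter of forebrain astrocytes, and was the most abundant member (chr2:102489004-102621129, forward strand). Control libraries 1, 2, 4 and 5 held 1649, 4006, 3241 and 2396 CPM, and LPS libraries 1 to 5 held 3716, 2211, 2949, 2499.7 and 3472 CPM. In both groups the bulb-rich libraries were the lower ones. Sedanolide libraries ranged from 2855 to 4044 CPM and co-treated libraries from 2489 to 3442 CPM. LPS against control gave 0.07 (-0.35 to 0.50, adjusted p = 0.87), and across the 19 libraries log2 Slc1a2 had a Pearson r of -0.77 with the bulb index, a description over points that share each library's tissue and depth. The LPS difference was -0.03 in the bulb-poor libraries (adjusted p = 0.931).

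Slc1a3 encodes GLAST, the related transporter of astrocytes and radial glia (chr15:8663608-8740248, reverse strand). Among the members its level varied little, from 869.9 to 1056 CPM in control, 822 to 1020.4 in LPS, 837 to 1059 after sedanolide and 771 to 903 after co-treatment. The interval of its LPS difference was the narrowest of the 10 genes (0.02, 95% interval -0.17 to 0.21, adjusted p = 0.93). Co-treated against LPS gave -0.18 (-0.37 to -0.0015, adjusted p = 0.249), and -0.23 bulb-poor (adjusted p = 0.482). These intervals bound the differences and do not show that the groups were alike.

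**Figure D4:**
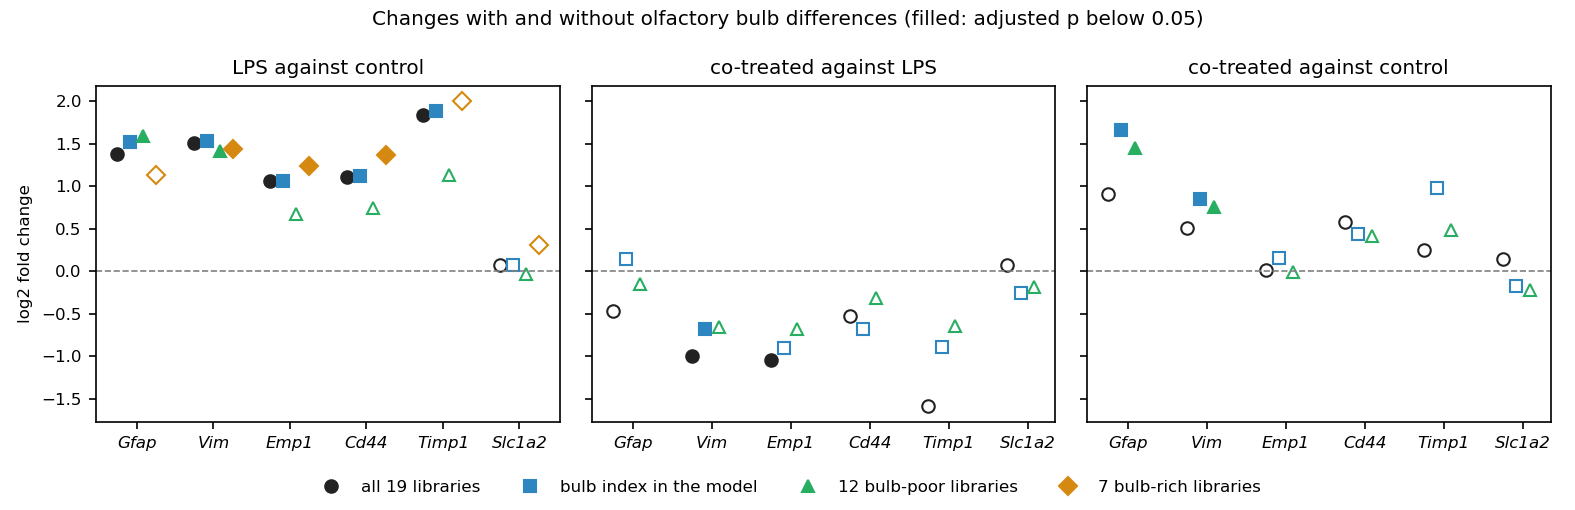
Log2 fold change (vertical axes) of 6 of the 10 genes in 3 comparisons, over all 19 libraries, with the bulb index in the model, in the 12 bulb-poor and, for LPS against control, in the 7 bulb-rich libraries; filled symbols have an adjusted p below 0.05. The LPS differences of Gfap (1.13 to 1.59) and Vim (1.41 to 1.53) are above 0 in all 4 fits, while the Gfap difference from LPS to co-treated lies between -0.47 and 0.14.

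The wider set of reactive astrocyte genes was mostly higher where it was called with LPS, and lower where it was called in co-treated against LPS libraries. These and the following lists were chosen with earlier results of these data known, so their direction is not independent evidence. Among all genes tested, 10.9% were called with LPS and 1.97% in co-treated against LPS libraries. In the bulb-poor libraries these shares were 4.78% and 0.197%. At an unadjusted p below 0.05 by edgeR, the co-treated against LPS share was 19.8% over all libraries and 10.3% bulb-poor. With LPS, the bulb-poor share at that threshold was 17.2%. Of 33 reactive genes outside the member list, 31 were tested, and 15 were higher and 1 lower with LPS, with a median log2 change of 0.89. Lcn2, a secreted iron-siderophore binding protein, rose from 0.676 CPM ± 0.219 in control to 25.8 ± 14.1 in LPS libraries (SD, n = 4 and 5, log2 5.27, adjusted p = 4.42e-08). The complement gene C3 rose by 3.73 (adjusted p = 8.54e-08), and Serpina3n, a protease inhibitor, rose by 2.71 (adjusted p = 4.34e-06). In co-treated against LPS libraries 8 of the 31 were called, all lower, with a median of -0.57. They included Lcn2 (-1.92, adjusted p = 0.00199), C3 (-1.14, adjusted p = 0.0177) and Serpina3n (-1.03, adjusted p = 0.049), and the last was at 62.6 CPM ± 7.03 in co-treated and 128 ± 33.5 in LPS libraries. In the bulb-poor libraries 13 of the 31 were higher with LPS and 1 was below the LPS level in co-treated libraries. Which cells held the Lcn2, C3 and Serpina3n transcripts in this bulk tissue was not tested.

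Of the 18 genes of astrocyte identity, 1 was called with LPS (against 10.9% of all genes), the tissue factor gene F3, which was lower (-0.36, adjusted p = 0.0415), and the median was 0.07. Glul, the glutamine synthetase gene and the most highly expressed of the 18, gave 0.02 (adjusted p = 0.937). In co-treated against LPS libraries 0 of 18 were called by edgeR (1.97% of all genes), 3 had an unadjusted p below 0.05 (19.8% of all genes), and the median was -0.17. Among 16 genes of glutamate and water transport (median 0.07), 1 was called with LPS, the amino acid transporter gene Slc38a5, which rose (1.46, adjusted p = 0.000132) and was below the LPS level in co-treated libraries (-1.35, adjusted p = 0.00227). With the bulb index in the model, 1 of the 16 was called lower in co-treated against LPS libraries (0.788% of all genes called).

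Of 12 tested intermediate filament and linker genes (median 0.32), 3 were called with LPS, all higher: Plec, the plectin linker (0.76, adjusted p = 0.00169), Nes, nestin (0.45, adjusted p = 0.024) and Synm, synemin, a partner of vimentin (0.42, adjusted p = 0.0375). None of the 12 was called in co-treated against LPS libraries by edgeR, with 2 at an unadjusted p below 0.05. Of 14 endfoot genes (median 0.22) 5 were called with LPS, all higher, led by the calcium channel gene Trpv4 (1.72, adjusted p = 0.000109), the matrix genes Agrn (0.43, adjusted p = 0.00824) and Lamb2 (0.79, adjusted p = 0.0139), and Utrn (0.29, adjusted p = 0.0321). Trpv4 (-1.33, adjusted p = 0.00606) and Lamb2 (-0.85, adjusted p = 0.0235) were below the LPS level in co-treated libraries. Among bulb-poor libraries 1 of the 12 and 1 of the 14 were called with LPS. None of the 12 or the 14 was called there in co-treated against LPS libraries by edgeR, with 3 of each at an unadjusted p below 0.05.

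Genes of the cytokine pathways that act on astrocytes were higher where they were called with LPS. Of 19 tested genes of the IL-6 family and STAT3 (median 0.39), 7 were called with LPS, all higher, among them the receptor gene Il6ra (1.58, adjusted p = 1.91e-07), the feedback inhibitor gene Socs3 (1.11, adjusted p = 0.000367), Bcl3 (1.49, adjusted p = 0.000462) and the oncostatin M receptor gene Osmr (1.00, adjusted p = 0.00051). Il6 itself was not tested, with at most 5 counts in any library. None of the 19 was called in co-treated against LPS libraries by edgeR, although 8 had an unadjusted p below 0.05 and the median was -0.32. Of 16 TGF-beta genes (median 0.10) 4 were higher with LPS, among them the receptor gene Tgfbr2 (1.2002, adjusted p = 6.86e-07), the ligand gene Tgfb1 (1.29, adjusted p = 4.9e-06) and Smad3 (0.52, adjusted p = 0.000767). Of the 16, 1 was called lower in co-treated against LPS libraries, 10 had an unadjusted p below 0.05 and the median was -0.28. Among bulb-poor libraries 5 of the 19 and 3 of the 16 were higher with LPS, and edgeR called 0 of either in co-treated against LPS libraries (2 and 1 at an unadjusted p below 0.05).

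Some partners of the surface and matrix members were called with LPS, where 10.9% of all genes tested were called. Among 17 tested metalloproteinase and inhibitor genes (median 0.10), 4 rose and 1 fell with LPS: Mmp9 (2.80, adjusted p = 4.97e-07), Mmp8 (3.42, adjusted p = 0.000149), Adam17 (0.59, adjusted p = 0.000213) and Mmp2 (0.81, adjusted p = 0.00423) rose, and Adamts1 (-0.66, adjusted p = 0.0055) fell. Mmp8 and Mmp9 are enzymes stored by neutrophils, and both were below the LPS level in co-treated libraries (-2.09, adjusted p = 0.0155, and -1.61, adjusted p = 0.00106). Of 18 hyaluronan and CD44 partner genes (median 0.14) 3 were called: Msn, which links CD44 to actin, rose (1.18, adjusted p = 1.14e-06), as did Hyal2 (0.51, adjusted p = 0.0354), and Hapln1 fell (-0.45, adjusted p = 0.0456). Msn was below the LPS level in co-treated libraries (-0.51, adjusted p = 0.0209). With the bulb index in the model, 2 of the 17 and 1 of the 18 genes were called lower in co-treated against LPS libraries. Of all genes tested, 0.788% were called in that fit. Of 14 tested sphingosine 1-phosphate genes (median 0.05) 3 were higher with LPS: the lyase gene Sgpl1 (0.48, adjusted p = 0.0013), the exporter gene Spns2 (0.67, adjusted p = 0.00243) and the leukocyte receptor gene S1pr4 (1.09, adjusted p = 0.00677), and 0 were called in co-treated against LPS libraries by edgeR, with 5 at an unadjusted p below 0.05.

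Markers of some other cell types were higher with LPS, and part of them were below the LPS level after co-treatment. This held for endothelial, pericyte, neutrophil, and monocyte and lymphocyte markers. Microglia markers were also higher with LPS, but edgeR called 0 of 8 in co-treated against LPS over all libraries. Their median there was -0.03, with 0 of 8 at an unadjusted p below 0.05. All 10 endothelial markers were higher with LPS (median 0.99), and their summed level was 341 to 534 CPM in control, 682 to 840 in LPS, 395 to 468 after sedanolide and 485 to 631 after co-treatment. Of 7 tested pericyte and smooth muscle markers 4 were higher with LPS (median 0.89), with summed levels of 269 to 428 CPM in control, 447 to 650 in LPS, 251 to 332 after sedanolide and 316 to 452 after co-treatment. Of 8 microglia markers 7 were higher with LPS (median 1.26), with sums of 318 to 528, 767 to 989, 422 to 549 and 763 to 999 CPM in the same order. The 8 neutrophil markers, all higher with LPS (median 3.42), summed to 7.43 to 12.3, 61.9 to 67.8, 5.57 to 12.05 and 29.8 to 41.2 CPM, and Mmp8, Cxcr2 and Camp were at 0 in some control or sedanolide libraries. In co-treated against LPS libraries 3 of 10 endothelial, 2 of 7 pericyte and 5 of 8 neutrophil markers were called, all lower. Bulb-poor, these were 0, 0 and 1, with 6, 3 and 6 at an unadjusted p below 0.05. None of 8 microglia markers was called there by edgeR and none had an unadjusted p below 0.05. No endothelial, pericyte or microglia marker was at 0 in any library. In the bulb-poor libraries 6 of the endothelial, 3 of the pericyte, 7 of the microglia and 6 of the neutrophil markers were higher with LPS. All 7 tested monocyte and lymphocyte markers were higher with LPS (median 3.06), and 2 were below the LPS level in co-treated libraries. Bulb-poor, edgeR called 2 of the 7 higher with LPS, and all 7 had an unadjusted p below 0.05. The 9 listed markers were near the floor, with sums of 1.67 to 2.25 CPM in control and 0.533 to 0.880 CPM after sedanolide. With LPS, edgeR called 0 of 10 fibroblast markers (median 0.17), 0 of 8 oligodendrocyte (0.03), 0 of 8 excitatory neuron (0.09), 0 of 6 tested ependymal (-0.10), 0 of 8 neural progenitor (-0.44), 0 of 7 olfactory ensheathing (-0.45) and 0 of 4 bulb projection neuron markers (-1.07). In co-treated against LPS libraries the medians were -5.36 for bulb projection neuron markers (4 of 4 at an unadjusted p below 0.05), -1.78 for ensheathing (6 of 7, and 1 called, Prss56), -0.94 for fibroblast (8 of 10) and -0.72 for neural progenitor markers (4 of 8). The genes listed as ensheathing markers (Frzb, Sox10, Npy, Fabp7, S100a5, Omp and Prss56) are not all confined to those cells. Bulb-poor, those medians were -0.67, -0.02, 0.14 and -0.39, with none called by edgeR and 0, 2, 0 and 1 at an unadjusted p below 0.05. The 4 projection neuron markers are also those of the bulb index, and Cdhr1 among them defined the split. Their smaller bulb-poor difference therefore follows from how the libraries were divided. The part of these cell types in the changes of Gfap, Vim, Emp1, Cd44 and Timp1 was not tested.

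The genes most like each member across libraries were named from 12696 or 12697 protein-coding candidates by Pearson r of log2 CPM, as a description over libraries that share their tissue make-up. For Gfap they were the complement gene C4b (r = 0.98), Cd9 (0.96) and Lyn (0.95) over all 19 libraries, and C4b again came first in the 12 bulb-poor libraries (0.98). C4b was at 24.1 CPM ± 14.8 in control, 102 ± 20.3 in LPS, 12.3 ± 8.76 after sedanolide and 55.7 ± 7.32 after co-treatment (SD, n = 4, 5, 5 and 5). Nearest to Vim were Igfbp7 (0.98), Tnfrsf1a (0.98) and Apcdd1 (0.97), nearest to Emp1 were Cp (0.96), Anxa2 (0.96) and Zc3hav1 (0.94), and nearest to Cd44 were Slc25a24 (0.93), Tnfsf10 (0.91) and Birc3 (0.91). Timp1 was closest to Jag1 (0.93), Myof (0.93) and Lama4 (0.92), and S1pr3 to Lbp (0.91), Tnxb (0.89) and Zfp503 (0.88). Cd109 was closest to Lamc3 (0.85), Aqp4 to Gpx8 (0.86), Slc1a2 to Wdr13 (0.97) and Slc1a3 to Cyp4f15 (0.85). Most of these neighbours were not among the 3 nearest in the bulb-poor libraries. There Gfap was also nearest to Tent5c and Spi1 (both 0.98), Vim to Sparc (0.99), Kcp and Ifnar2 (both 0.98), Emp1 to Fam107b (0.94), Cd44 to Casp1 (0.91), Timp1 to Cavin1 (0.93) and Slc1a2 to Fermt2 (0.98) and Wdr13 (0.95).

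Among the members themselves Gfap and Vim had r = 0.92 over 19 libraries and 0.94 over the bulb-poor libraries. Vim had r = 0.90 with Emp1 and 0.88 with Timp1, while Gfap had r = -0.46 with Slc1a2 and -0.05 with Slc1a3. The transporters, Slc1a2 and Slc1a3, had r = 0.28 over all libraries and 0.78 over the bulb-poor libraries. S1pr3 and Cd109 had r = 0.71 and 0.78 in the same order.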

How the data were processed

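Poly(A) RNA of mouse medial prefrontal cortex was sequenced from strand-marking libraries, per the labels' protocols. The authors deposited raw counts, as whole numbers without normalization, with 57010 genes as lines and 19 libraries as columns, all of them used. The submitters' processing notes list, without versions, DESeq2, RSEM, StringTie, HISAT2 and fastp. The table carries the name of another tool, featureCounts, whose settings, strand use and genome build are not given in the sources used here. How reads of genes that overlap, or lie antisense to each other, were assigned is therefore not known. Coordinates of genes are as deposited, and those of promoters are RefSeq's in GRCm38.p6. The 2 sets of coordinates were not combined, and transcript lengths were matched to the deposited genes by identifier.

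Counts were tested with edgeR 4.0.16 (R 4.3.3, limma 3.58.1): TMM library factors, the default filter by group (17757 genes tested), robust quasi-likelihood fit, all 19 libraries in 1 model with a mean per group, and Benjamini-Hochberg adjustment. SE was obtained by dividing the size of the log2 change by the root of its F statistic. CPM was computed from the deposited counts and the TMM factors. Transcript lengths came from the GENCODE annotation of GRCm38. The fit was tested on simulated data. Library totals of 19.1 to 24.3 M counts limit genes such as Timp1 and Cd109. Control replicate 3 was not analysed here.

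The members, gene lists and the naming rule were chosen with earlier results of these data known. Named genes are all members, up to 4 called genes per list and direction with the smallest p, the most expressed gene of a list, and the 3 nearest in pattern to a member. The values of 1 listed gene are not reported here. The Gfap to Vim ratio was picked after being seen. Alternatives were other library factors (RLE, upper quartile), no expression filter, 1 CPM in 4 libraries, DESeq2 1.42.0, only the groups compared, the replicate block, a bulb index of 4 markers as a covariate, bulb-poor or bulb-rich libraries only, leaving out each library, and, chosen after an earlier analysis of these data, offsets for transcript length and GC content.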

Additional observations from a re-analysis of the deposited data

Results flagged for a closer look

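In each of 40 sets (10 genes in 4 groups) the highest and lowest libraries were compared with the next one, and a library was singled out where that gap took up an unusual share of the group's range. About 1 in 20 sets does so by chance, and 4 did here. Cd44 was at 5.78 CPM in LPS replicate 1, with the next LPS library at 9.21 CPM. S1pr3 was at 12.05 CPM in LPS replicate 5, with the next at 15.9 CPM. Timp1 was at 0.972 CPM in co-treated replicate 4, with the next co-treated library at 0.458 CPM. Slc1a3 was at 1056 CPM in control replicate 2, with the next control at 891 CPM. LPS replicates 1 and 5 are the bulb-poor LPS libraries, and whether that bears on the Cd44 and S1pr3 values was not tested.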

How the results depend on the processing

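All co-treated libraries were bulb-poor, only 2 LPS and 2 control libraries were, and Timp1 and Cd109 rest on few counts, so these comparisons have wide intervals. The cause of each shift below was not tested. The alternatives with other library factors moved the all-gene median log2 change by less than 0.1. Same-numbered libraries of different groups did not deviate together (mean r -0.12 over 27 pairs, 4 above 0.1). Pairs with other numbers ran from r -0.75 to 0.77, a spread that could hide a pairing. No pairing by number was seen, and this check cannot exclude one.

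Genes called for LPS against control were 848 in the bulb-poor libraries, 761 in the bulb-rich libraries and 1114 with only the groups compared. For sedanolide against control they were 439 with no expression filter, 95 with the replicate block, 1466 with the bulb index, 8 in the bulb-poor libraries, 0 by edgeR in the bulb-rich libraries (3911 at an unadjusted p below 0.05), 19 with only the groups compared, 1892 with DESeq2 and 295 with length and GC offsets. For co-treated against LPS they were 145 with the replicate block, 140 with the bulb index, 35 bulb-poor, 723 with only the groups compared, 912 with DESeq2 and 554 with the offsets. For co-treated against control they were 1244 with no filter, 954 with the block, 1096 with the index and 615 bulb-poor. For the interaction they were 32 with the block, 314 with the index, 20 bulb-poor and 447 with DESeq2.

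Members called, each of 10 and with the share of all genes called in that fit, were 2 bulb-poor (4.78%) and 3 bulb-rich (4.26%) for LPS against control. For co-treated against LPS they were 1 with the index (0.788%), 0 bulb-poor by edgeR (0.197%) and 5 with DESeq2 (5.01%). Bulb-poor, 5 members had an unadjusted p below 0.05 there, as had 10.3% of all genes. For co-treated against control they were 2 with the index (6.17%), 2 bulb-poor (3.46%), 1 with only the groups compared (8.09%) and 2 with DESeq2 (15.1%). With the replicate block the Gfap rise with LPS was 1.28 and lost its call (edgeR adjusted p = 0.0615). Gfap relative to the identity genes was 1.55 for LPS against control and 2.21 for co-treated against sedanolide in the bulb-poor libraries, where the groups are too small for the exact permutation test to reach a call after adjustment. It lost its call for LPS against control, at 1.39, with Slc1a2 and Slc1a3 as the reference.

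Signs turned where no call was made over all libraries. Emp1, co-treated against control, was -0.0026 with RLE factors, -0.018 with upper quartile factors, -0.0030 with no filter, -0.011 with the 1 CPM filter, -0.014 bulb-poor, -0.011 with only the groups compared and -0.0011 with DESeq2. Slc1a3, LPS against control, was -0.0073 with upper quartile factors, -0.0042 with no filter, -0.010 bulb-poor and -0.011 with the offsets. Slc1a3, sedanolide against control, was -0.040 with upper quartile factors, -0.0094 with no filter, -0.018 with the 1 CPM filter, -0.0074 with the index, -0.12 bulb-poor and -0.0014 with the offsets. S1pr3, co-treated against sedanolide, was 0.013 with upper quartile factors, 0.020 with the index, 0.016 bulb-poor, 0.0046 with only the groups compared and 0.0092 with the offsets. With the index, Gfap was 0.14 and Slc1a2 -0.25 in co-treated against LPS, and Aqp4 was 0.16 and Slc1a2 -0.18 in co-treated against control. Bulb-poor, Cd109 was -0.28 and Slc1a2 -0.033 in LPS against control, Slc1a2 was -0.19 in co-treated against LPS, and Aqp4 was 0.090 and Slc1a2 -0.23 in co-treated against control. Bulb-poor, the interaction was 0.17 for Timp1 and 0.079 for Cd109. Bulb-rich, Cd109 was 0.68 in sedanolide against control.

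Leaving out 1 library at a time gave 1308 to 2478 genes called for LPS against control and 97 to 1410 for sedanolide against control. Genes called were 141 to 590 for co-treated against LPS, 876 to 2907 for co-treated against control and 33 to 242 for the interaction. Members called, out of 10 and beside those gene counts, ranged from 3 to 5 for LPS against control and 0 to 1 for sedanolide against control. They ranged from 1 to 5 for co-treated against LPS and 0 to 2 for co-treated against control. The ends of the member and gene ranges need not come from the same fit. Gfap relative to the identity genes ranged from 1.21 to 1.65 for LPS against control. In LPS against control Aqp4 ranged from -0.24 to 0.00091, Slc1a2 from -0.11 to 0.29 and Slc1a3 from -0.012 to 0.087. In sedanolide against control Cd44 ranged from -0.25 to 0.049, Cd109 from -0.70 to 0.15 and Slc1a3 from -0.045 to 0.074. In co-treated against LPS Aqp4 ranged from -0.057 to 0.13 and Slc1a2 from -0.019 to 0.16, and in co-treated against sedanolide S1pr3 ranged from -0.056 to 0.015. In co-treated against control Emp1 ranged from -0.15 to 0.20, Timp1 from -0.14 to 0.58, Aqp4 from -0.22 to 0.018 and Slc1a2 from -0.044 to 0.36. The Gfap interaction ranged from -0.25 to 0.53.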
